A study of Mus musculus with 27 samples.

Results

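In all, 9 genes of the Hedgehog pathway were followed through the differentiation of mouse calvarial osteoblasts, namely the ligands Shh and Ihh, the receptor Ptch1, the signal transducer Smo, the transcription factors Gli1, Gli2 and Gli3, and the inhibitors Hhip and Sufu. They were chosen by name, for their place in the pathway, with earlier results of these data known, and are 9 of the 37991 genes measured. The cells came from the skull vault (calvaria) of neonatal mice of the strain C57BL/6J-Col3.6 CFP, which carry a cyan fluorescent protein driven by a fragment of the type I collagen promoter. Every sample shared this transgene and this background, and was sorted on the fluorescence before the medium was supplemented with ascorbic acid and β-glycerol phosphate, which allow matrix formation and mineralization. Since the fluorescence marks cells in which that fragment is active, the sort selected on promoter activity at one time and did not fix the makeup of the later cultures. RNA was taken on days 2, 4, 6, 8, 10, 12, 14, 16 and 18, the day being the only factor that differed between groups, and 3 profiles were deposited for each day, 27 in all.

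Hedgehog ligands are secreted proteins that bind Ptch1 on receiving cells and so release Smo from its inhibition. Active Smo, in the primary cilium, favours the activator forms of Gli2 and Gli3 over their repressor forms and over retention by Sufu, and the activators switch on Gli1, Ptch1 and Hhip. Transcripts of these 3 genes are therefore widely read as a sign of the activity of the pathway. In long bones Ihh from growth plate chondrocytes drives osteoblast formation, whereas the skull vault forms without a cartilage model.

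The 3 profiles of a day carried 1 barcode, differed in the sequencing lane and agreed within sampling noise over genes with whole-number counts, so their counts were summed and each day was treated as 1 library with no replicate. The study describes the profiles of a day as triplicate samples, and nothing in the sources used here says whether they came from separate cultures. Totals per day ranged from 22470195 counts on day 10 to 62009157 on day 12. Levels are given in transcripts per 1000000 (TPM), which take the transcript length into account, after upper-quartile normalisation, with the SD over the 3 profiles, which covers sequencing and quantification only. Shares of all counts, which carry no length, are given as counts per 1000000 (CPM) with 95% Wilson intervals that cover counting error only. Changes are log2 differences from day 2 to day 18 along a straight line in day, fitted by edgeR's quasi-likelihood test to the 9 libraries, and every p below is adjusted over all genes tested unless stated otherwise. These p-values measure the scatter of single days around the line, not the spread between cultures. Day 2 stood farthest from the other days, with a median correlation of 0.863 with them against up to 0.946 for day 12. The fitted changes of Ptch1, Hhip and Gli3, which it moved most, and the pattern likeness are given with and without it, whereas a ratio to day 2 cannot be.

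The 2 ligands among the members, Shh and Ihh, were at or under the limit of detection. Shh (ENSMUSG00000002633, NCBIM37 chromosome 5, 28783355 to 28793641, minus strand) had 0 counts on every day. A share of 3 counts, taken here as the floor, corresponds to 0.134 CPM on day 10, the shallowest day, and to 0.0484 CPM on day 12, the deepest. The 95% Wilson upper limit for 0 counts was higher, 0.171 CPM on day 10. Ihh (ENSMUSG00000006538, chromosome 1, 74991891 to 74998246, minus strand) had 1 count on day 14 and 2 on day 16, all from the lane of replicate 2, and 0 on the other 7 days. Dhh, the remaining mammalian Hedgehog ligand, had more counts than either, 58 over all days, with 0 on day 16 and at most 15 on day 14. On day 14 this was 0.332 CPM, or 0.251 TPM. Thus none of the Hedgehog ligand genes reached 1 TPM on any day. None of them passed the filter on low counts of the straight line fit.

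Gli1 (ENSMUSG00000025407, chromosome 10, 126766945 to 126778645, minus strand), the Gli factor that acts only as an activator and is itself induced by the pathway, was also close to this floor. It had 0 counts on day 2, 1 each on days 4, 6 and 8, 2 on day 10, 4 on day 12, 1 each on days 14 and 16, and 14 on day 18. Day 18 therefore held 14 of its 25 counts, and these came from all 3 lanes (2, 8 and 4). On that day the share was 0.315 CPM (95% Wilson interval 0.188 to 0.529) and the level 0.148 TPM, the highest of the series. Gli1 did not pass the filter on low counts. When every gene with at least 1 count was kept, its adjusted p in the edgeR fit was 0.0401, and without day 18 it was 0.547, so that this call rested on day 18.

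**Figure D1:**
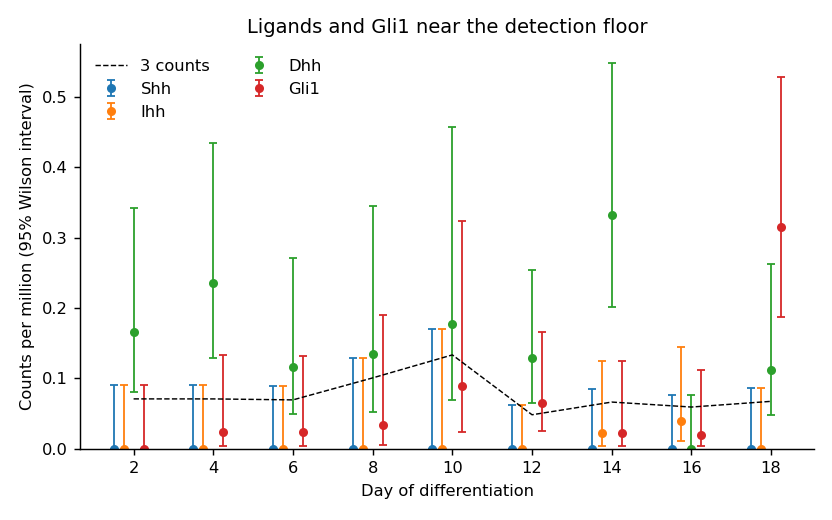
CPM (linear axis) by day for the ligands Shh, Ihh and Dhh and for Gli1, slightly offset within a day. Points are the summed library of a day, bars are 95% Wilson intervals and the dashed line is the share that 3 counts would give. Shh lies at 0 throughout, and Gli1 lies above the dashed line on days 12 and 18 only.

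Ptch1 (ENSMUSG00000021466, chromosome 13, 63610261 to 63674474, minus strand), the receptor that binds the ligand and holds Smo inactive, was expressed at 1 TPM or more on all 9 days. From day 2 to day 18, in steps of 2 days, its level was 10.6, 5.54, 4.60, 4.17, 4.85, 6.94, 6.47, 6.97 and 6.97 TPM. The level was thus highest on the first day sampled, lowest on day 8 and intermediate from day 12 on. As a share of all counts, the value on day 4 was 0.503 times that on day 2 (exact 95% interval 0.453 to 0.559), and on day 8 it was 0.386 times (0.338 to 0.440). From day 8 to day 16 the share was 1.55 times as large (1.35 to 1.78). The straight line gave a log2 change of −0.23 (SE 0.37, adjusted p = 0.618), whereas a curve in day, a natural spline with 3 degrees of freedom, gave adjusted p = 0.000338. Without day 2 the curve still passed (adjusted p = 0.0234) and the line pointed the other way, at 0.61 (adjusted p = 0.0536). With bulk RNA, here as for each later result, fewer cells of a type and less RNA per cell cannot be told apart.

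Hhip (ENSMUSG00000064325, chromosome 8, 82490014 to 82581905, minus strand), a membrane protein that binds and sequesters the ligand, was the lowest of the members that passed the filter. In the same order of days, Hhip was at 1.52, 0.741, 1.11, 0.839, 0.538, 1.03, 1.32, 2.34 and 1.01 TPM. It reached 1 TPM on 6 of the 9 days, by little on days 12 and 18, and on 5 days without any one replicate, 4 with TPM as deposited and 2 with FPKM. The counts behind these levels were few, from 25 on day 10 to 124 on day 16, and the SD over the 3 profiles of day 14 was 0.728 TPM. The share on day 4 was 0.537 times that on day 2 (exact 95% interval 0.374 to 0.762), and the share on day 16 was 1.58 times that on day 14 (1.17 to 2.15). Neither the line (log2 change 0.28, SE 0.44, adjusted p = 0.614) nor the curve (adjusted p = 0.140) passed the test, and without day 2 the line was at 0.98 (adjusted p = 0.101). Ptch1 and Hhip thus shared a higher value on day 2 than on day 4, by like factors, and the intervals for both lay below 1.

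The sequences before the start sites of these 2 genes are shown because both are standard readouts of Gli activity. They are the 250 bases before the start in RefSeq (GRCm38.p6, a later build than that of the expression files), 5′ to 3′ on the strand of the gene. Capitals mark CCACCC, the core letters of the Gli recognition motif GACCACCCA. The window is chr13:63565736-63565985 for Ptch1 and chr8:80058009-80058258 for Hhip, both on the minus strand.
Ptch1: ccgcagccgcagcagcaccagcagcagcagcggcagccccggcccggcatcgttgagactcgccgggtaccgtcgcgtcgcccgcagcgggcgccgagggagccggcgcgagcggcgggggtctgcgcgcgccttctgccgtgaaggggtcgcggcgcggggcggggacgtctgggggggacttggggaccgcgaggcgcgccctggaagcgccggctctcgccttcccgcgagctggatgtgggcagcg
Hhip: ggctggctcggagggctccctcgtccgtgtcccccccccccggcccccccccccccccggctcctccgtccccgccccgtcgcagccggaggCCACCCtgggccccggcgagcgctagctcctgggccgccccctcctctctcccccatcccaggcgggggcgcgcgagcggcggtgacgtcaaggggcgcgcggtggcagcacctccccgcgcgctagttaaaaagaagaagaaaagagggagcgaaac
The Ptch1 window held the core on neither strand, and the Hhip window held it at 1 place, 158 bases before the start. Of the members, 7 had an entry in the promoter table, which spans 250 bases before to 50 after the start. The full motif, searched on both strands, was in 0 of these 7 and in 0.253% of the 32851 promoters listed. The core, which lies within the full motif, was in 5 of the 7 and in 31.5% of all. A match is a description of the letters and not evidence of binding, and other sequence of these genes was not searched.

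**Figure D2:**
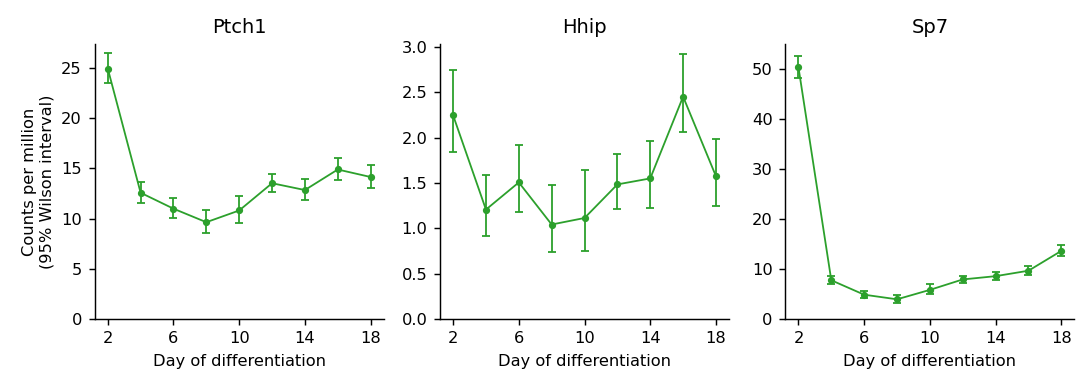
CPM (linear axes starting at 0) by day for Ptch1, Hhip and Sp7, each in its own panel. Points are the summed library of a day and bars are 95% Wilson intervals. Ptch1 and Sp7 are highest on day 2 and lowest on day 8. Hhip is lowest on day 8, at 1.04 CPM against 1.11 on day 10, with overlapping intervals. It is highest on day 16, at 2.45 CPM against 2.25 on day 2, with overlapping intervals as well.

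Among 9886 genes with a mean of at least 5 TPM, the 3 whose log2 levels followed those of Ptch1 most closely over the 9 days were Sp7 (Pearson r = 0.974), Ltbp2 (r = 0.961) and Prkar2b (r = 0.956). Sp7 encodes osterix, a transcription factor required for osteoblast formation, Ltbp2 a matrix protein of the microfibrils, and Prkar2b a regulatory subunit of protein kinase A. Sp7 went from 32.3 TPM on day 2 to 5.18 on day 4, had its lowest level, 2.77 TPM, on day 8 and was back at 10.6 TPM by day 18. For Hhip the closest genes were Zdhhc6 (r = 0.887), Sra1 (r = 0.886) and Cisd3 (r = 0.860), whose levels varied little, Zdhhc6 being at 23.0 TPM on day 2 and 22.1 on day 18. These coefficients are descriptions over 9 libraries, chosen as the highest of many, and the points share depth and normalisation. All 3 genes closest to Ptch1 were higher on day 2, the library that stood apart, than on days 4, 8 and 18. Without day 2, r with Ptch1 was 0.960 for Sp7, 0.941 for Ltbp2 and 0.975 for Prkar2b, ranks 11, 44 and 2 among the same genes. For Hhip the values without day 2 were 0.892 for Zdhhc6, 0.896 for Sra1 and 0.853 for Cisd3, ranks 18, 14 and 38, so the choice of closest genes depended on that day more than the coefficients did.

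Smo (ENSMUSG00000001761, chromosome 6, 29685694 to 29711365, plus strand), the membrane protein that passes the signal to the Gli factors, had the highest mean level of the 9 genes, 52.2 ± 16.2 TPM (SD over 9 days). Over the 9 days its level was 31.4, 34.8, 36.7, 40.8, 58.0, 64.7, 72.9, 62.4 and 68.3 TPM. All 4 days up to day 8 lay below all 5 days from day 10 on, and the largest step was between day 8 and day 10, where the share of counts was 1.39 times as large (exact 95% interval 1.32 to 1.46). From day 2 to day 18 the share was 1.91 times as large (1.83 to 2.00). Smo rose along the line (log2 change 1.20, SE 0.19, adjusted p = 0.000469). Its annotation holds 1 transcript, so its level does not depend on how reads were divided among isoforms. Relative to detected genes, it moved from the 81.7th percentile of level on day 2 to the 91.4th on day 18. Set per length beside its inhibitor, the ratio of Smo to Ptch1 was 2.97 on day 2, 6.27 on day 4 and between 7.98 and 12.0 on each later day.

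Gli2 (ENSMUSG00000048402, chromosome 1, 120730709 to 120950196, minus strand), the main activator at the start of the response, had the largest change of the members tested. The levels of Gli2, by day, were 4.29, 3.40, 4.23, 4.43, 4.78, 8.65, 7.72, 6.61 and 8.72 TPM. The 4 days from day 12 on lay above all earlier days. Gli2 rose along the line (log2 change 1.57, SE 0.28, adjusted p = 0.000963), and its share of counts on day 18 was 2.05 times that on day 2 (exact 95% interval 1.83 to 2.30). The SD over the 3 profiles was wide on some days, at 2.33 TPM on day 18 and 2.07 on day 8, and the effective length that RSEM assigned to this gene of 9 annotated transcripts varied from 2466 to 6358 bases between profiles. The counts, which do not depend on that length, gave 10.8 CPM on day 2, 19.6 on day 10 and 22.2 on day 18, so that the step lay earlier in the shares than in the levels.

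Gli3 (ENSMUSG00000021318, chromosome 13, 15555068 to 15821859, plus strand), which acts chiefly as the repressor when no ligand is bound, peaked in the middle of the series. By day, Gli3 was at 25.8, 31.8, 42.1, 43.8, 44.9, 56.4, 50.7, 45.4 and 41.2 TPM. The curve passed the test (adjusted p = 0.000136) and the line did not (log2 change 0.36, SE 0.23, adjusted p = 0.224), and the line depended on its ends. Without day 18 it passed (log2 change 0.67, adjusted p = 0.0255), and without day 2 it was nearly flat (log2 change 0.10, adjusted p = 0.757). The end of the series differed between scales. On day 18 the share of counts was 1.14 times that on day 2 (exact 95% interval 1.09 to 1.19), whereas the level per length was 1.60 times as high. The mean effective length was 4691 bases on day 2 and 3801 on day 18. The scales also differ in normalisation, by all counts for shares and by the upper quartile for levels. For Smo, whose effective length did not vary, the same ratios were 1.91 for the share and 2.18 for the level. The ratio of Gli3 to Gli2 in TPM was 6.01 on day 2, between 9.35 and 9.94 on days 4 to 10, and 4.72 on day 18, its lowest value. It carries the isoform uncertainty of both genes.

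Sufu (ENSMUSG00000025231, chromosome 19, 46471386 to 46563294, plus strand), which binds Gli proteins in the cytoplasm, changed least of the members that rose. The levels of Sufu over the 9 days were 8.92, 11.0, 12.7, 9.60, 12.1, 13.9, 13.5, 12.1 and 15.4 TPM. The early and late days overlapped, and the SD over the 3 profiles reached 3.64 TPM on day 18. The line passed the test (log2 change 0.52, SE 0.16, adjusted p = 0.0205), as did the curve (adjusted p = 0.0198). Without day 18 the line did not pass (log2 change 0.50, adjusted p = 0.0670), and the curve did not pass without day 4, 6, 8 or 14 (adjusted p from 0.0515 to 0.0615).

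**Figure D3:**
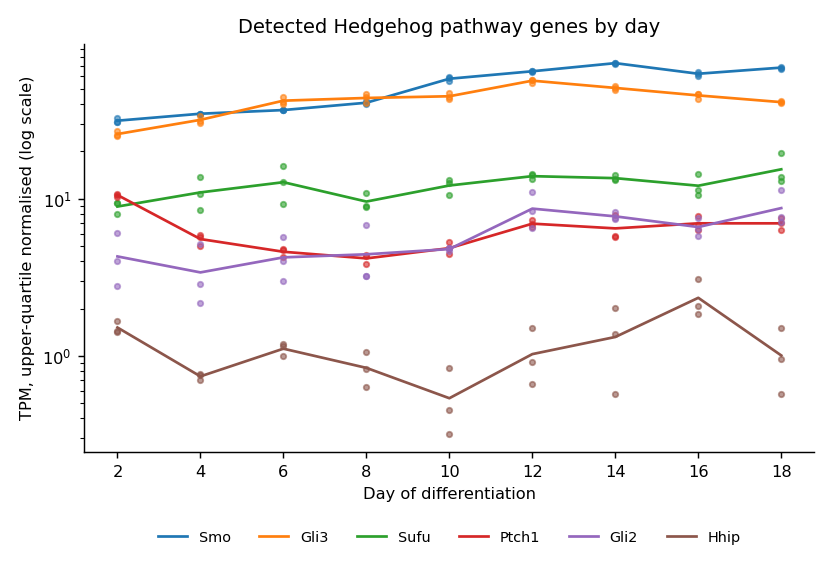
Upper-quartile-normalised TPM (log axis) by day for the 6 members that passed the filter on low counts. Points are the 3 profiles of a day, which are lanes of 1 library, and lines join their means. Smo and Gli3 lie highest, Hhip lowest, and the lines of Ptch1 and Gli2 cross more than once.

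Ordered by mean level, the genes ran Smo (52.2 TPM), Gli3 (42.4), Sufu (12.1), Ptch1 (6.34), Gli2 (5.87), Hhip (1.16), Gli1 (0.0305), Ihh (0.00466) and Shh (0). The order was clear at 3 steps. Gli3 was above Sufu, Gli2 above Hhip and Hhip above Gli1 on 9 of 9 days, with ranges over days that did not overlap. Neighbours elsewhere were not separated beyond their spread over days. Smo was above Gli3 on 7 of 9 days, Sufu above Ptch1 on 8 and Ptch1 above Gli2 on 5.

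Of the 9 members, 6 could be tested by the line, and Shh, Ihh and Gli1 could not. Of the 6, Smo, Gli2 and Sufu rose and none fell, against 28.3% of the 15659 genes tested that rose and 26.1% that fell. By the curve, 5 of the 6 changed, all but Hhip, against 57.5% of the 16256 genes tested in that fit. With shares this large over all genes, these counts do not set the pathway apart from other genes. The median log2 change of the 6 was 0.44, and that of all genes tested was 0.05.

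The listed proteins that bind ligand at the cell surface, other than Ptch1 and Hhip, spanned a wider range of changes than the members did. All 5 passed the test, 4 rising and 1 falling, against 28.3% and 26.1% of all genes tested. Gas1, a membrane-anchored co-receptor, rose from 8.21 TPM on day 2 to 208 on day 10 and 269 on day 18 (log2 change 5.20, SE 0.89, adjusted p = 0.000756), and its share of counts on day 18 was 28.8 times that on day 2 (exact 95% interval 26.5 to 31.3). Boc, a co-receptor of the immunoglobulin superfamily, was lowest on day 4 at 13.5 TPM and rose to 57.2 on day 18 (log2 change 1.95, SE 0.30, adjusted p = 0.000426). Cdon, the relative of Boc with the same role, rose less, from 22.4 to 34.5 TPM (log2 change 0.78, SE 0.17, adjusted p = 0.00253). The order of these co-receptors therefore turned over. On day 2 Gas1 was at 0.366 times the level of Cdon and on day 18 at 7.79 times, and Cdon went from 1.13 to 0.604 times the level of Boc.

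Gpc3, a glypican that competes with Ptch1 for ligand, rose (log2 change 1.40, SE 0.33, adjusted p = 0.00494) and was highest on day 12 at 86.9 TPM. Lrp2 (megalin), an endocytic receptor that can bind Shh, fell (log2 change −7.29, SE 0.80, adjusted p = 7.97e-05), from 76.8 CPM on day 2, through 10.7 on day 8 and 1.20 on day 10, to 0.675 on day 18. Relative to Ptch1, Gas1 was at 0.778 times its level on day 2 and at 38.6 times on day 18, the range from day 10 on being 38.6 to 42.9.

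**Figure D4:**
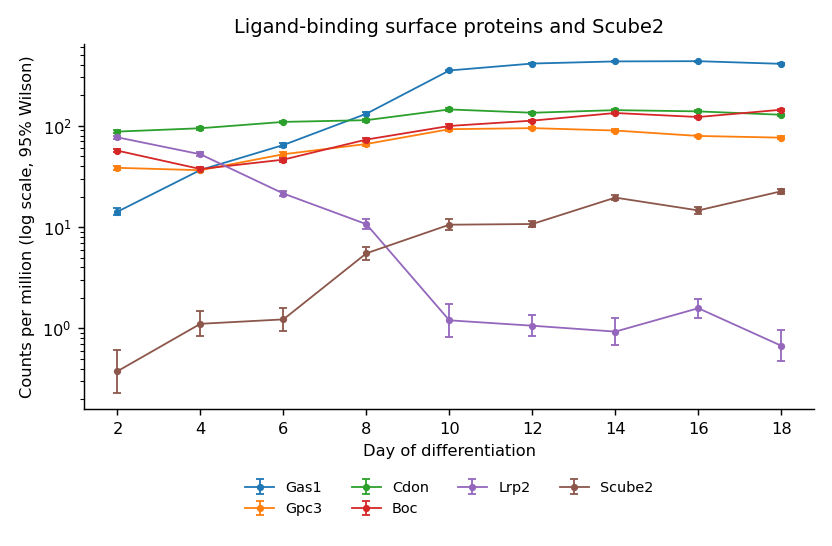
CPM (log axis) by day for the 5 listed ligand-binding surface proteins and the ligand-release protein Scube2. Points are the summed library of a day and bars are 95% Wilson intervals. Gas1 and Scube2 rise most between days 2 and 10, and Lrp2 falls over the same days.

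Of the 33 other pathway genes examined, 31 could be tested. Of these, 11 rose, 4 fell and 16 did not pass, with a median log2 change of 0.25, and 18 changed by the curve. Over all genes tested, 28.3% rose, 26.1% fell and 57.5% changed by the curve, and nothing is read from the difference. In the group for ligand maturation and release, 1 of 4 tested genes rose and none fell. This was Scube2, a secreted protein that helps free lipid-modified ligand, which went from 0.179 TPM on day 2 to 12.1 on day 18 (log2 change 5.65, SE 0.78, adjusted p = 0.000234). Hhat, which attaches palmitate to the ligands, had the highest mean level of this group at 9.08 TPM and did not pass (log2 change −0.40, adjusted p = 0.305).

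In the group for the cilium and Smo regulation, 5 of 13 rose, 1 fell and 7 did not pass. Over all genes tested, 28.3% rose and 26.1% fell, and nothing is read from these counts. The risers included Evc (log2 change 1.06, adjusted p = 0.00130) and Evc2 (0.93, adjusted p = 0.00420), partners in the complex that acts just below Smo in the cilium, Ift172 (0.91, adjusted p = 0.00233), a part of the transport system of the cilium, and Arrb2 (1.25, adjusted p = 0.00124), an arrestin. Arl13b, a small GTPase of the ciliary membrane, fell (log2 change −0.50, adjusted p = 0.0310), a call that was lost without day 4, 14 or 18 (adjusted p = 0.0866, 0.0637 and 0.129). Tulp3, which carries receptors into the cilium, had the highest mean level of the group, 37.5 TPM, and did not pass (log2 change −0.11, adjusted p = 0.438).

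In the group for Gli processing, 1 of 9 rose and 2 fell, beside 28.3% and 26.1% of all genes tested, and nothing is read from these counts. Prkacb, a catalytic subunit of protein kinase A, which phosphorylates Gli2 and Gli3, rose (log2 change 0.67, adjusted p = 0.00123). Csnk1e (log2 change −0.81, adjusted p = 0.00567) and Csnk1a1 (−0.32, adjusted p = 0.0337), casein kinases that phosphorylate the same proteins further, fell. The call of Csnk1a1 was lost without day 2, 4 or 14 (adjusted p = 0.122, 0.116 and 0.0645). It was also lost in the edgeR fit of days 2 to 6 against days 14 to 18 (adjusted p = 0.0604). Spop, an adaptor for their ubiquitination, had the highest mean level, 167 TPM, and did not pass (log2 change −0.16, adjusted p = 0.463). The reads of Hhat, Tulp3 and Csnk1e were partly shared with other transcripts, as their counts were not whole numbers, and their values are less certain.

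**Figure D5:**
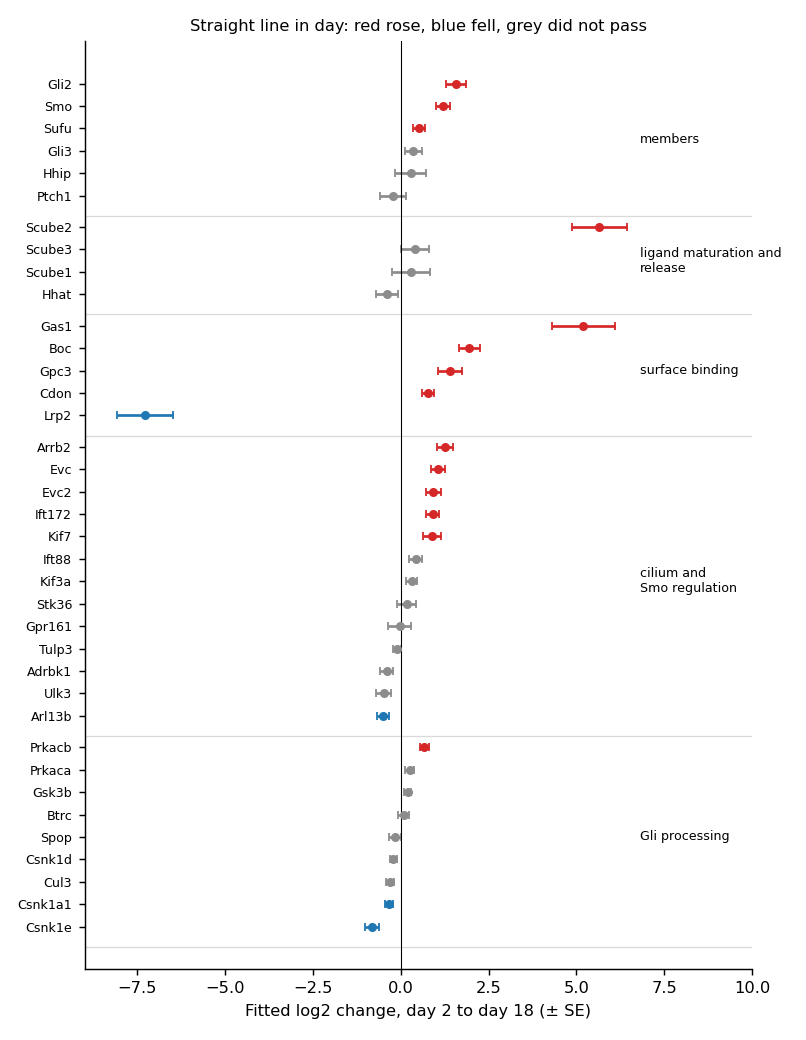
Fitted log2 change from day 2 to day 18 (x axis, linear) for the 6 tested members and 31 other tested pathway genes, grouped by role. Points are edgeR estimates, bars are ± 1 SE, and colour gives the call at an adjusted p under 0.05. The surface binding group holds the widest spread, from −7.29 for Lrp2 to 5.20 for Gas1, whereas the members lie between −0.23 and 1.57.

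Of 9 other genes known as transcriptional targets of the pathway, 8 could be tested. Of these, none rose, 3 fell and 5 did not pass the line, with a median log2 change of −0.91, while 28.3% of all genes tested rose and 26.1% fell. By the curve, 4 of the 8 changed, against 57.5% of all genes tested in that fit. With so few genes the counts are given as a description only. Foxf2, a forkhead factor, fell (log2 change −1.71, SE 0.34, adjusted p = 0.00182), from 2.00 TPM on day 2 to 0.514 on day 18. Its relative Foxf1 (annotated as Foxf1a) had a log2 change of −1.12 (adjusted p = 0.0728), which did not pass. The cyclins Ccnd2 (log2 change −0.97, SE 0.12, adjusted p = 0.000111) and Ccnd1 (−0.85, SE 0.28, adjusted p = 0.0240) fell along the line. Ccnd1 did not fall steadily, as it was at 248 TPM on day 2, 416 on day 6, its maximum, and 226 on day 18. Its curve passed as well (adjusted p = 0.000492). Ccnd2 had the highest mean level of the list, 274 TPM, and the counts of Ccnd1 were partly shared with other transcripts. Without day 16, Ccnd1 did not pass (adjusted p = 0.0556). All 5 proliferation markers examined (Mki67, Top2a, Cdk1, Ccnb1 and Birc5) fell as well, their summed level going from 352 TPM on day 6 to 68.7 on day 18. Their part in the values of the cyclins was not tested.

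The label of the cells was checked against markers of osteoblasts and of other cell types. Of 10 osteoblast markers, 7 rose, none fell and 3 did not pass the line. Beside this and the other marker counts below, 28.3% of all genes tested rose and 26.1% fell. All 10 osteoblast markers passed by the curve, against 57.5% of all genes tested in that fit. Their summed level went from 3001 TPM on day 2 to 9330 on day 18. Most of this sum was type I collagen, with Col1a1 at 4263 and Col1a2 at 4114 TPM on day 18. Bglap (osteocalcin) rose from 1.24 TPM on day 2, a level that rested on 4.58 counts, to 208 on day 18. Its counts, like those of Lyz2 below, were partly shared with other transcripts. Of the 3 markers that did not pass the line, Sp7 and Spp1 had negative log2 changes (−1.23 and −1.17) and Alpl a positive one (2.22). Alpl was at 9.13 TPM on day 2, 0.467 on day 6 and 17.6 on day 18. Markers of other cells changed over the series too, not all with the timing of Smo, Gli2 and Gas1. From day 10 to day 18 Gas1 went from 208 to 269 TPM, Lyz2 from 172 to 1855 and Adipoq from 1.1 to 92.0. All 5 adipocyte markers rose, with a summed level of 3.21 TPM on day 6 and 407 on day 18, and Cfd was at 0 on days 4 and 10. Of 7 macrophage markers, 6 rose, with a summed level of 24.1 TPM on day 2 and 2014 on day 18, of which Lyz2 made up 1855. Their part in the changes of the Hedgehog genes was not tested.

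Of 8 markers of chondrocytes, the cells in which Ihh is best known, 7 were tested, of which Sox9, Col9a1, Col11a2 and Col10a1 rose and Col2a1 fell. Their summed level lay between 110 TPM on day 6 and 144 on day 8, as Col2a1 went from 111 TPM on day 2 to 47.8 on day 18 and Sox9 from 16.8 to 45.0. Col9a1 (log2 change 6.83) and Col11a2 (5.19) changed most, at levels up to 8.20 and 6.55 TPM. The highest level of Col11a2, on day 16, had an SD of 3.74 TPM over the 3 profiles. Its share of counts was instead highest on day 18, at 15.7 CPM against 8.21 on day 16. Matn1 was at 0 on days 2 and 6. The part of these cells in the changes of the Hedgehog genes was not tested. Of 5 endothelial markers, 3 were tested, of which 2 rose and 1 fell, and their summed level lay between 3.24 TPM on day 2 and 12.1 on day 14. Pecam1 stayed at or below 0.339 TPM, and Emcn was at 0 on 4 days.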

How the data were processed

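RNA sequencing profiles of sorted calvarial cells at 9 time points were used, 27 profiles in all. The authors amplified the cDNA (NuGEN Ovation), built Illumina TruSeq libraries and, per the submitters' processing notes, used Bowtie 0.12.9 and RSEM 1.2.8 with NCBIM37. The authors deposited an expected count per gene from RSEM, an estimated count that is not normalised, and the TPM and FPKM values deposited by the authors divide them by an effective length averaged over isoforms. FPKM was used only as an alternative. Symbols and positions came from the GENCODE annotation of NCBIM37 (37205 of 37991 identifiers), and 1 listed pathway gene, Disp1, was not analysed here. Another listed gene is not reported here, and the counts over the pathway and target lists leave it out.

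Each profile's TPM was divided by the upper quartile of its values above 0, then scaled to the mean upper quartile. A gene was called expressed at 1 TPM. Expected counts were summed over the 3 profiles of a day, rounded and fitted with edgeR 4.0.16 (R 4.3.3, upper-quartile factors, minimum count of 10, quasi-likelihood test, Benjamini-Hochberg adjusted p under 0.05) as a straight line in day, and as a natural spline with 3 degrees of freedom. The line fit was run on simulated counts with known straight-line changes. Their common dispersion, the spread beyond counting error, was that of the spline fit (0.0196), below that of the line fit (0.0581). The simulation therefore does not cover the full scatter of the real days around the line. Depth per day was 22470195 to 62009157 counts, which sets the width of the Wilson intervals and the floor of 3 counts. Intervals of ratios are exact and conditional on the summed counts.

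The members and lists were chosen with earlier results of these data known. Named were all members, in each role up to 4 genes with the largest change in each direction among those that passed, and the gene of each role with the highest level. Pattern likeness used log2(TPM + 0.5) and a mean of at least 5 TPM. Named outside this rule, after their values were seen, were Dhh, Foxf1 and single markers. Alternatives were TMM factors, DESeq2 1.42.0, other count filters, the 27 profiles as separate samples, each replicate and each day left out, early against late days, limma 3.58.1 on log2 TPM, and other thresholds.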

Additional observations from a re-analysis of the deposited data

How the results depend on the processing

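Of 397 recomputed values, 369 were kept. Fits were kept if they stayed on the same side of the threshold, with the same sign where a change was fitted. Levels were kept if they moved by at most their spread over days, counts by at most 1.5 times, and pattern coefficients by under 0.1. The number of members called by the line was 3 without any one day and without any one replicate, though not always the same 3, since without day 18 Gli3 passed (log2 change 0.67, adjusted p = 0.0255) and Sufu did not. The count for the other pathway genes was 13 to 17 without one day, against 15, and that for the target genes 2 to 4, against 3. The fitted change of Ptch1 ran from −0.401 to 0.611 with one day left out, positive only without day 2, and it was also positive with limma on normalised TPM (0.0315 with a pseudocount of 0.5 and 0.0406 with 0.1). That of Hhip ran from −0.0704 without day 16 to 0.982 without day 2. None of these passed the test. The cause was not tested. limma on normalised TPM moved the median of all genes to 0.12 or 0.15, from 0.05. It gave Gli3 0.68 in both settings (adjusted p = 0.0391 and 0.0387), and on TPM as deposited Sufu did not pass (0.38, adjusted p = 0.102). By the curve, Sufu did not pass without day 4, 6, 8 or 14 (adjusted p = 0.0515 to 0.0615). With the 27 profiles as separate samples and the replicate number as a block, 4 members were called, as without the block, the added one being Gli3 (0.35, adjusted p = 0.0304 with the block and 0.0243 without), but lanes of 1 library are not replicates. In these fits 23 other pathway genes and 5 target genes were called, with the replicate block and without it. Calls rose over all genes too, to 10881 of 14244 tested with the block and 10754 of 13835 without it. The main fit called 8510 of 15659, so nothing is read from the higher counts. The replicate numbers did not pair the samples (mean correlation of deviations 0.00695, from −0.0855 to 0.0924). Keeping every gene with at least 1 count and leaving out day 18, an alternative chosen after seeing the data, as was the pattern likeness without day 2, Gli1 had an adjusted p of 0.547. Among the other pathway and target genes, Evc2, Arl13b, Csnk1a1 and Ccnd1 lost their call in 1 or more of the limma fits, and Arl13b also without replicate 3 (adjusted p = 0.0551). With no replicate at any time point, change between cultures is not measured, and depth limits Shh, Ihh, Gli1 and Dhh, and to a lesser degree Hhip, whose level reached 5 TPM on no day.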
